A study of Mus musculus with 18 samples.

Results

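Neurotrophins and ligands of the GDNF family are secreted survival factors of neurons, and 8 genes of these systems are described here in the retina: the ligands Bdnf, Ntf3 and Gdnf, the receptors Ntrk2, Ntrk3 and Ngfr for neurotrophins, and the receptor components Gfra1 and Ret for GDNF. Every probe of the array whose annotated symbol was one of the 8 was taken. This gave 20 probes for 7 genes, of 46116 probes and 17658 genes in all. No probe was listed under Ntf3 in the annotation used, and that gene was not analysed here.

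The arrays covered retinas of male C57BL/6J and DBA/2J mice of 60 to 90 days of age, as controls that received no crush and at 2 and 5 days after the optic nerve had been crushed with forceps for 10 s. There were 3 arrays for each of the 6 groups, 18 in all, and each held RNA pooled from 2 retinas. Both strains are inbred, and DBA/2J mice develop a pigmentary glaucoma at an older age. The study asked how the retinal transcriptome responds to the crush in each strain. RNA of whole retina was measured, so fewer cells of a type and less RNA per cell cannot be told apart.

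BDNF binds the receptor tyrosine kinase TrkB, the product of Ntrk2, and NT-3, the product of Ntf3, binds TrkC, the product of Ntrk3. All neurotrophins and their precursors also bind p75NTR, the product of Ngfr, which has no kinase. GDNF binds GFRα1, a receptor held on the membrane by a lipid anchor, and the pair then engages the receptor tyrosine kinase RET. Retinal ganglion cells receive BDNF along the optic nerve from their targets in the brain as well as from within the retina, and optic nerve crush cuts off the first supply.

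Values are given in units of the scale of the study, on which the log2 signal of each array was set to a mean of 8 and an SD of 2. A unit was 0.558 log2, or 1.47-fold, at the median of the 18 arrays. A probe was called, and is said to have risen or fallen, where limma gave an adjusted p under 0.03 over all 46116 probes. A probe was counted as above the reference level on an array where it exceeded the 95th percentile of 975 probes for olfactory receptors, genes that a retina is not known to use. That level lay between 7.24 and 7.71 units.

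Arrays had a median signal between 131.5 and 210.4, and their 95th percentile was 8.38 to 15.4 times their 5th, so the number of arrays and this range limit the precision. The mean of 5 rod markers was 19.51 to 19.99 units in the 6 control arrays, at the top of the scale. On 50 probes that differ between the strains, set so that C57BL/6J lies at 0 and DBA/2J at 1, C57BL/6J 2 days replicate 3, by its label, lay at 0.952, and DBA/2J 2 days replicate 1, by its label, at -0.0397. No probe of the 7 genes was among the 50. For the values at 2 days and between the strains that are given below for single probes above the reference level on most arrays, the value over the other 16 arrays is added where it moved by over 1.5 times, changed sign or changed a call. The array labelled C57BL/6J control replicate 1 had Xist, a transcript of the inactive X chromosome, at 11.27 units against a male label.

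3 promoter windows of 300 bases show the sequence before and around the start of genes whose levels are described below, Gfra1 because its level differed most between the strains, Bdnf because its transcripts start from several promoters, and Ngfr because of its GC boxes. They come from RefSeq with the GRCm38.p6 build, run from 250 bases before to 50 after a start, and were the only sequence used here. Each window was searched on both strands for the CRE TGACGTCA, its half-site TGACG, the GC box GGGCGG, the TATA box TATAAA and the E-box CACGTG, and matches stand in capitals. The half-site is part of the CRE. Of 32851 windows, 1.79% held the CRE, 20.8% the half-site, 35.7% the GC box, 13.6% the TATA box and 7.15% the E-box. RefSeq windows were matched for Bdnf, Ntf3, Ntrk2, Ngfr, Gdnf and Gfra1, and Ntrk3 and Ret were not matched.
Gfra1, chr19:58455349-58455648, minus strand: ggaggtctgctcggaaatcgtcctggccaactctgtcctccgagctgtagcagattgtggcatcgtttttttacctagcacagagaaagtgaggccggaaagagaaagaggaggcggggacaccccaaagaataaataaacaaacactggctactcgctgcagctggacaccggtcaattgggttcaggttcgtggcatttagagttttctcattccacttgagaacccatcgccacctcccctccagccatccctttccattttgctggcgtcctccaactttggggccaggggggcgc
Bdnf, the third of 7 windows, chr2:109692186-109692485, plus strand: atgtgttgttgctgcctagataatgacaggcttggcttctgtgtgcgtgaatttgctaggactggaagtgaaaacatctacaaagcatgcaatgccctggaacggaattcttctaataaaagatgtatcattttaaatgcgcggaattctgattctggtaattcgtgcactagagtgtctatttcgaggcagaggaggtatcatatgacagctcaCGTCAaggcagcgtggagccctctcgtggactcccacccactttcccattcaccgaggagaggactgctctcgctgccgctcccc
Ngfr, chr11:95587649-95587948, minus strand: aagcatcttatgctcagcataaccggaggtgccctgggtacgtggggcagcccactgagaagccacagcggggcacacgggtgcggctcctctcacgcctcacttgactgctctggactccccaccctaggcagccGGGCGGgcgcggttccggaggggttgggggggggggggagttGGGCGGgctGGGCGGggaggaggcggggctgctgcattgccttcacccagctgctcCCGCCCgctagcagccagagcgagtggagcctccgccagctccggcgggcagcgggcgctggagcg
The Gfra1 window held no match to the 5 motifs. The Bdnf window held 1 CRE half-site, read on the other strand as CGTCA, and the Ngfr window held 4 GC boxes. No other of the 7 Bdnf windows held the half-site. The GC contents of the 3 windows shown were 54%, 48.7% and 71.7%, and the median of all windows was 52.7%. A match is a description of letters and was not tied to any level below.

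On the 18 arrays, 5 of the 7 genes had a probe above the reference level throughout, and these were the 5 receptor genes. Gfra1 (1 probe), Ngfr (1 of 2 probes), Ntrk2 (1 of 3), Ntrk3 (2 of 4) and Ret (1 of 2) each lay above it on 18 of 18 arrays. Of the 6 Bdnf probes 1 exceeded the reference level on 13 arrays, 1 on 1 array and 4 on none, and both Gdnf probes lay below it on every array. Probes differ in how they bind, so these counts set no gene's level against another's. The 8 probes that were above the reference level on none of the 18 arrays lay where olfactory receptor probes also lie. Whether a difference in them could be detected was not tested, so none is read as a change of the gene.

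**Figure D1:**
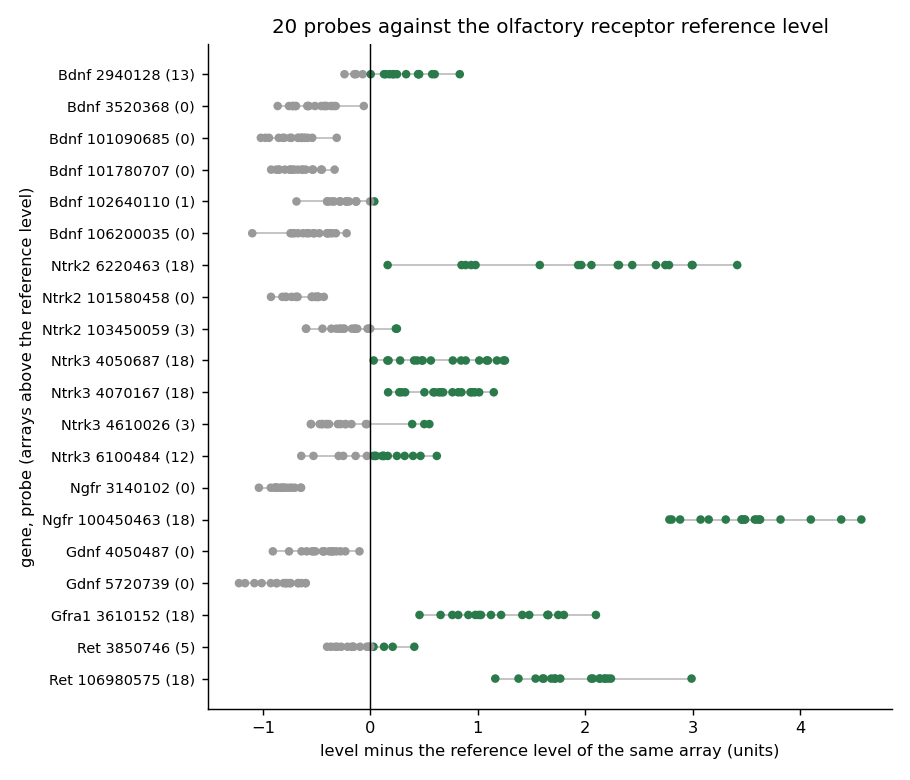
Level of each of the 20 probes minus the reference level of the same array (x axis, units), with 1 point per array and 18 points per probe (y axis). Green points lie above the reference level and grey points at or below it, and the number in brackets counts the arrays above it, from 0 for both Gdnf probes to 18 for the brightest probes of Ntrk2, Ntrk3, Ngfr, Gfra1 and Ret.

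None of the 20 probes was called in any of the 10 comparisons. In the 5 comparisons of single groups, the share of all probes called was 0.00434% between the controls of the strains, 0.0195% and 1.36% for C57BL/6J at 2 and 5 days against its controls, and 0% and 0.0672% for DBA/2J at 2 and 5 days. With both strains averaged it was 0.18% at 2 days and 4.81% at 5 days, and between the strains, averaged over the 3 conditions, 0.733%. No probe of the array was called for a strain difference of the change at 2 or at 5 days, 0% each, where 1910 and 1951 of 46116 probes had an unadjusted p under 0.05. Among the 20 probes, an unadjusted p under 0.05 was found for 1 between the controls, beside 6.93% of all probes. In C57BL/6J it was found for 2 at 2 days and 0 at 5 days, beside 7.47% and 19.6%, and in DBA/2J for 0 and 1, beside 6.39% and 11.3%. With both strains averaged it was found for 4 at 2 days, beside 9.6%, and for 2 at 5 days, beside 23.7%. Over the 16 arrays the 4 became 1, beside 7.47%. Between the strains it was found for 1 (9.66%), and for the strain difference of the change for 1 at 2 days (4.14%) and 0 at 5 days (4.23%). SAM, the test the study used, was coded anew here with all label permutations, and also called 0 of the 20 in each of the 5 comparisons of single groups. Its share of all probes is not given here, so this 0 cannot be set beside a background. Beside the low shares that limma called, a count of 0 is near the background, and the values of the members are given for themselves.

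The lowest adjusted p of any member belonged to Gfra1, in the comparison between the strains. Gfra1 encodes the receptor that binds GDNF before RET is engaged. In C57BL/6J its probe (3610152) read 9.51, 9.15 and 9.21 units in the controls, 8.47, 8.92 and 8.34 at 2 days and 9.00, 8.77 and 9.34 at 5 days. In DBA/2J it read 8.68, 8.85 and 8.47 in the controls, 9.17, 8.51 and 8.21 at 2 days and 8.20, 8.20 and 8.07 at 5 days. The DBA/2J controls lay below all C57BL/6J controls, and the DBA/2J arrays at 5 days were the lowest group of the 6 and lay below every C57BL/6J array. At 2 days the groups of the strains overlapped, with the array labelled DBA/2J replicate 1 the highest and the array labelled C57BL/6J replicate 3 next to the lowest.

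Over all 18 arrays Gfra1 was 0.48 units lower in DBA/2J than in C57BL/6J (SE 0.13, 95% interval -0.76 to -0.21), which did not pass the threshold (limma, adjusted p = 0.0904). The strains' means were 8.97 ± 0.39 units in C57BL/6J and 8.48 ± 0.36 in DBA/2J (SD, n = 9). Without the 2 arrays near the other strain the difference was -0.61 units (SE 0.11, 95% interval -0.84 to -0.38) with an adjusted p of 0.00447, so Gfra1 was called lower in DBA/2J there, where 2.87% of all probes were called and 1 of the 20 probes was. The 8 C57BL/6J arrays then had a median of 9.08 units (8.47 to 9.51) and the 8 DBA/2J arrays a median of 8.34 (8.07 to 8.85), and the ranges overlapped. With each of these 16 arrays left out in turn, the call held in 16 of 16 fits, with adjusted p from 0.00274 to 0.0266. The call thus rested on leaving out arrays whose labels and strain position disagreed, and leaving out DBA/2J 2 days replicate 1 alone was enough (-0.57 units, adjusted p = 0.00901).

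Of the parts of this strain difference, that between the controls was -0.62 units (SE 0.22, adjusted p = 0.46), with groups that did not overlap. Groups did not overlap for 2 of the 20 probes in that comparison and for 12.1% of all probes. Of 11 measured ganglion cell markers 1, Rbpms, also differed between the strains averaged over the conditions, by 0.76 units higher in DBA/2J (adjusted p = 0.0292). The mean of the 11 per control array was 10.24 to 10.50 units in C57BL/6J and 10.34 to 10.49 in DBA/2J. The mean of 7 lens markers was 9.69 to 17.05 units in the C57BL/6J controls and 7.16 to 7.74 in the DBA/2J controls, and 0 of the 7 were called between the controls or between the strains averaged over the conditions. The part of either in the Gfra1 difference was not tested.

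**Figure D2:**
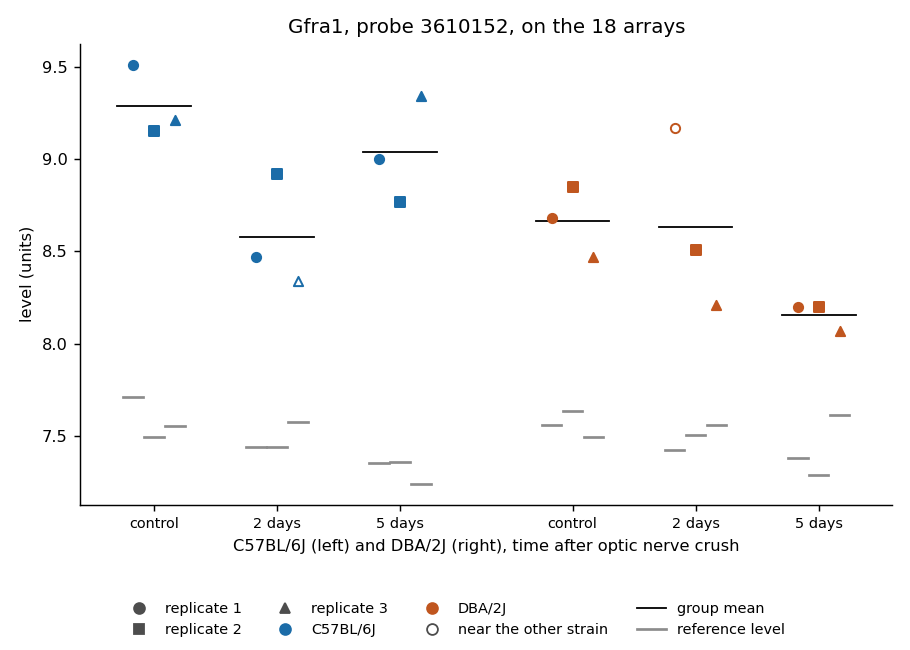
Level of the Gfra1 probe in units (y axis) on each of the 18 arrays by strain and time after optic nerve crush (x axis). Points are arrays with a shape for each replicate number, black lines group means, grey dashes the reference level of each array, and open points the 2 arrays near the other strain. The 3 DBA/2J arrays at 5 days sit between 8.07 and 8.20, below all 9 C57BL/6J arrays.

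After the crush Gfra1 had lower group means than in the controls of the same strain in all 4 crush groups. The difference was -0.71 units in C57BL/6J at 2 days (SE 0.22, adjusted p = 0.394), where no crush array reached a control, and -0.25 at 5 days (SE 0.22, adjusted p = 0.564). In DBA/2J it was -0.04 units at 2 days (SE 0.22, adjusted p = 0.988) and -0.51 at 5 days (SE 0.22, adjusted p = 0.389), again with no crush array at 5 days reaching a control. None of the 4 passed the threshold. The DBA/2J value at 2 days rested on replicate 1, 1 of the 2 arrays near the other strain, and over the 16 arrays it was -0.30 units (SE 0.19, adjusted p = 0.916). Averaged over the strains, the difference was -0.37 units at 2 days (SE 0.16, adjusted p = 0.454) and -0.38 at 5 days (SE 0.16, adjusted p = 0.155). After quantile normalization the change at 5 days was -0.35 log2 (SE 0.08, adjusted p = 0.0179), which was called. Without C57BL/6J control replicate 1, the array with Xist, the adjusted p on the scale of the study was 0.296.

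The change of Gfra1 was not shown to differ between the strains. At 2 days DBA/2J moved 0.68 units less downwards than C57BL/6J (SE 0.31, unadjusted p = 0.0475, adjusted p = 0.9999), and over the 16 arrays this shrank to 0.29 (SE 0.27). At 5 days the difference of the changes was -0.26 units (SE 0.31, adjusted p = 0.999). In the order of the 6 group means, C57BL/6J controls came first at 9.29 ± 0.19 units, followed by C57BL/6J 5 days (9.04 ± 0.29), DBA/2J controls (8.67 ± 0.19), DBA/2J 2 days (8.63 ± 0.49), C57BL/6J 2 days (8.58 ± 0.31) and DBA/2J 5 days (8.16 ± 0.07; SD, n = 3 each). Each neighbour in this order overlapped with the next, except that all arrays of C57BL/6J at 2 days lay above all arrays of DBA/2J at 5 days.

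Ret, the kinase that signals for GDNF once GFRα1 has bound it, was read by 2 probes that did not move together (Pearson r 0.15 over 18 arrays, a description). Probe 106980575 lay above the reference level on all arrays and read 9.78, 9.55 and 9.16 units in C57BL/6J controls, 10.43, 8.82 and 8.74 at 2 days and 9.53, 9.04 and 9.48 at 5 days. DBA/2J arrays read 9.77, 9.82 and 9.63 in the controls, 9.14, 9.22 and 9.17 at 2 days and 9.15, 9.42 and 9.15 at 5 days. All 6 DBA/2J arrays after the crush lay below all 3 DBA/2J controls, while the C57BL/6J groups overlapped and held the highest array of all, C57BL/6J 2 days replicate 1.

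In DBA/2J the difference of the brighter Ret probe from the controls was -0.57 units at 2 days (SE 0.32, adjusted p = 0.829) and -0.50 at 5 days (SE 0.32, adjusted p = 0.622). In C57BL/6J it was -0.16 at 2 days and -0.14 at 5 days (SE 0.32 each, adjusted p = 0.956 and 0.851), and over the 16 arrays the C57BL/6J value at 2 days turned to 0.13 (SE 0.34, adjusted p = 0.985). Averaged over the strains it was -0.36 units at 2 days (SE 0.23, adjusted p = 0.665), and 1 array decided that value: without C57BL/6J 2 days replicate 1 it was -0.64 units with an adjusted p of 0.0198, a call. Without the 2 arrays near the other strain it was -0.21 units (SE 0.24, adjusted p = 0.901). At 5 days it was -0.32 (SE 0.23, adjusted p = 0.425). The strain means differed by -0.01 units (95% interval -0.41 to 0.39), and over the 16 arrays by -0.10 (95% interval -0.51 to 0.31). The other Ret probe (3850746) stayed between 7.13 and 7.71 units, above the reference level on 5 arrays.

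Gdnf, the ligand of these receptors, was below the reference level with both probes. Probe 4050487 ranged from 6.60 to 7.34 units and probe 5720739 from 6.39 to 6.82. For the first probe the controls read 7.28, 7.15 and 7.12 units in C57BL/6J and 7.20, 7.09 and 7.11 in DBA/2J. The crush arrays read 6.91, 7.34 and 6.67 at 2 days and 6.99, 7.04 and 6.60 at 5 days in C57BL/6J, and 6.91, 6.91 and 6.80 at 2 days and 7.15, 7.01 and 7.17 at 5 days in DBA/2J. Groups did not overlap with the controls in C57BL/6J at 5 days and in DBA/2J at 2 days, both lower, at levels where olfactory receptor probes also lie. The difference at 2 days, strains averaged, was -0.24 units (SE 0.11, adjusted p = 0.493).

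Of Bdnf and Ntf3, Bdnf was the one measured. It encodes brain-derived neurotrophic factor, whose transcripts share the coding exon and differ in their first exon. Its brightest probe (2940128) read 7.56, 8.07 and 8.01 units in C57BL/6J controls, 7.20, 8.04 and 7.72 at 2 days and 7.48, 7.80 and 7.69 at 5 days. DBA/2J arrays read 7.89, 7.84 and 7.36 in the controls, 7.35, 7.72 and 7.56 at 2 days and 7.63, 8.12 and 7.79 at 5 days. All 6 groups overlapped. The group means ran from 7.54 ± 0.19 in DBA/2J at 2 days to 7.88 ± 0.28 in the C57BL/6J controls (SD, n = 3), a range of the order of the SDs.

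Bdnf (2940128), strains averaged, differed from the controls by -0.19 units at 2 days (95% interval -0.51 to 0.14) and by -0.04 at 5 days (95% interval -0.36 to 0.29), with adjusted p of 0.761 and 0.913. Between the strains the difference was -0.03 units (95% interval -0.30 to 0.23), and 0.01 over the 16 arrays (95% interval -0.30 to 0.31). The other 5 Bdnf probes, which lay above the reference level on at most 1 array each, differed in both directions at 2 days. Probe 3520368 was at -0.23 units (unadjusted p = 0.02, adjusted p = 0.403) and probe 106200035 at 0.19 (unadjusted p = 0.0371, adjusted p = 0.482), and over the 16 arrays both 95% intervals included 0.

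Ntrk2, the gene of the BDNF receptor TrkB, varied more between replicates than nearly all other probes. Its probe 6220463 read 7.87, 10.24 and 9.49 units in C57BL/6J controls, 8.42, 10.44 and 9.88 at 2 days and 8.29, 10.77 and 10.02 at 5 days. In DBA/2J it read 9.52, 9.21 and 8.38 in the controls, 8.27, 10.16 and 9.87 at 2 days and 9.82, 10.28 and 9.67 at 5 days. In C57BL/6J replicate 1 was the lowest and replicate 2 the highest of each group, and in DBA/2J only the 5-day group lay within a single unit. The SD within groups was 0.972 units, at the 98.4th percentile of all probes.

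The means of Ntrk2 were higher after the crush in each strain at both times, and none of these differences was called. The difference was 0.38 and 0.49 units in C57BL/6J at 2 and 5 days and 0.40 and 0.89 in DBA/2J (SE 0.72 each), with adjusted p from 0.714 to 0.955. For the average of the strains it was 0.39 units at 2 days and 0.69 at 5 days (SE 0.51 each), and the 95% interval at 5 days ran from -0.39 to 1.77 (adjusted p = 0.439). All 3 DBA/2J arrays at 5 days lay above all 3 DBA/2J controls. Over the 16 arrays the value at 2 days was 0.98 units in DBA/2J (SE 0.77, adjusted p = 0.917), 0.23 in C57BL/6J (SE 0.77, adjusted p = 0.988) and 0.61 with both strains averaged (SE 0.55, 95% interval -0.57 to 1.78). Equal replicate numbers deviated together between C57BL/6J controls and 2 days, and within these 3 pairs Ntrk2 was higher at 2 days each time, by 0.55, 0.20 and 0.40 units. With the pairs as a block in a fit of these 6 arrays the difference was 0.38 units (SE 0.14, 95% interval 0.04 to 0.72, limma, unadjusted p = 0.0343, adjusted p = 0.575), not a call. In that fit 0 of 46116 probes were called, and an unadjusted p under 0.05 was found for 3712 of them and for 2 of the 20 probes. The other of these 2 was Gfra1, at -0.71 units (SE 0.19, limma, unadjusted p = 0.0123, adjusted p = 0.433). The pairs were taken up after the data were seen, and the methods give the replicate numbers no meaning. One pair held C57BL/6J 2 days replicate 3, an array near the other strain. Another held C57BL/6J control replicate 1, the array with Xist. Whether the arrays of a pair belong together was not tested. Probe 101580458 of Ntrk2 lay below the reference level on all arrays and probe 103450059 above it on 3. The isoform that each probe reads, full-length or without the kinase, was not determined here.

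Ntrk3, the gene of the NT-3 receptor TrkC, was read by 4 probes. Probe 4050687 read 7.74, 7.93 and 8.65 units in C57BL/6J controls, 7.61, 8.68 and 8.83 at 2 days and 7.76, 8.20 and 7.72 at 5 days. The DBA/2J values were 8.12, 8.12 and 7.77 in the controls, 7.58, 8.68 and 8.57 at 2 days and 8.27, 8.37 and 8.38 at 5 days. The 2-day arrays held both the lowest and the highest values, and the DBA/2J arrays at 5 days lay just above the DBA/2J controls. Probe 4070167 followed it over the 18 arrays (r 0.76, a description) and ranged from 7.66 to 8.59.

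Ntrk3 (4050687), strains averaged, differed from the controls by 0.27 units at 2 days (SE 0.23, adjusted p = 0.779) and 0.06 at 5 days (SE 0.23, adjusted p = 0.895). Probe 4070167 gave 0.23 (SE 0.16, adjusted p = 0.696) and 0.03 (SE 0.16, adjusted p = 0.922). The remaining Ntrk3 probes lay above the reference level on 12 and 3 arrays and had differences of 0.07 to 0.18 units at the 2 times, none called, and over the 16 arrays the 0.18 of probe 6100484 at 2 days was 0.06 (SE 0.17). All 4 probes were higher at both times with both strains averaged, and each of these 8 intervals included 0. At 5 days the averages of probes 4050687 and 4070167 joined opposite signs. These were -0.21 and -0.12 units in C57BL/6J and 0.34 and 0.19 in DBA/2J, none called. The remaining probes were higher in both strains at 5 days.

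Ngfr, the gene of p75NTR, was read by 2 probes that disagreed in level. Probe 100450463 lay above the reference level on 18 arrays and probe 3140102 on none. The first read 11.19, 10.95 and 10.36 units in C57BL/6J controls, 12.01, 10.59 and 10.46 at 2 days and 11.17, 10.95 and 11.34 at 5 days. The DBA/2J values were 10.34, 11.09 and 11.12 in the controls, 11.04, 11.08 and 10.63 at 2 days and 10.87, 11.67 and 10.92 at 5 days. All groups overlapped, and C57BL/6J 2 days replicate 1 was the highest array, as it was for Ret.

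Ngfr (100450463), strains averaged, differed from the controls by 0.13 units at 2 days (SE 0.26, adjusted p = 0.925; 0.24 over the 16 arrays, SE 0.28, adjusted p = 0.903) and by 0.31 at 5 days (SE 0.26, 95% interval -0.24 to 0.86, adjusted p = 0.497). The strain means differed by -0.03 units (95% interval -0.47 to 0.42), and over the 16 arrays by -0.14 (95% interval -0.62 to 0.34). Probe 3140102 lay on the other side of 0, at -0.10 and -0.12 units (adjusted p = 0.753 and 0.363). The transcript that each of the probes reads was not determined here.

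**Figure D3:**
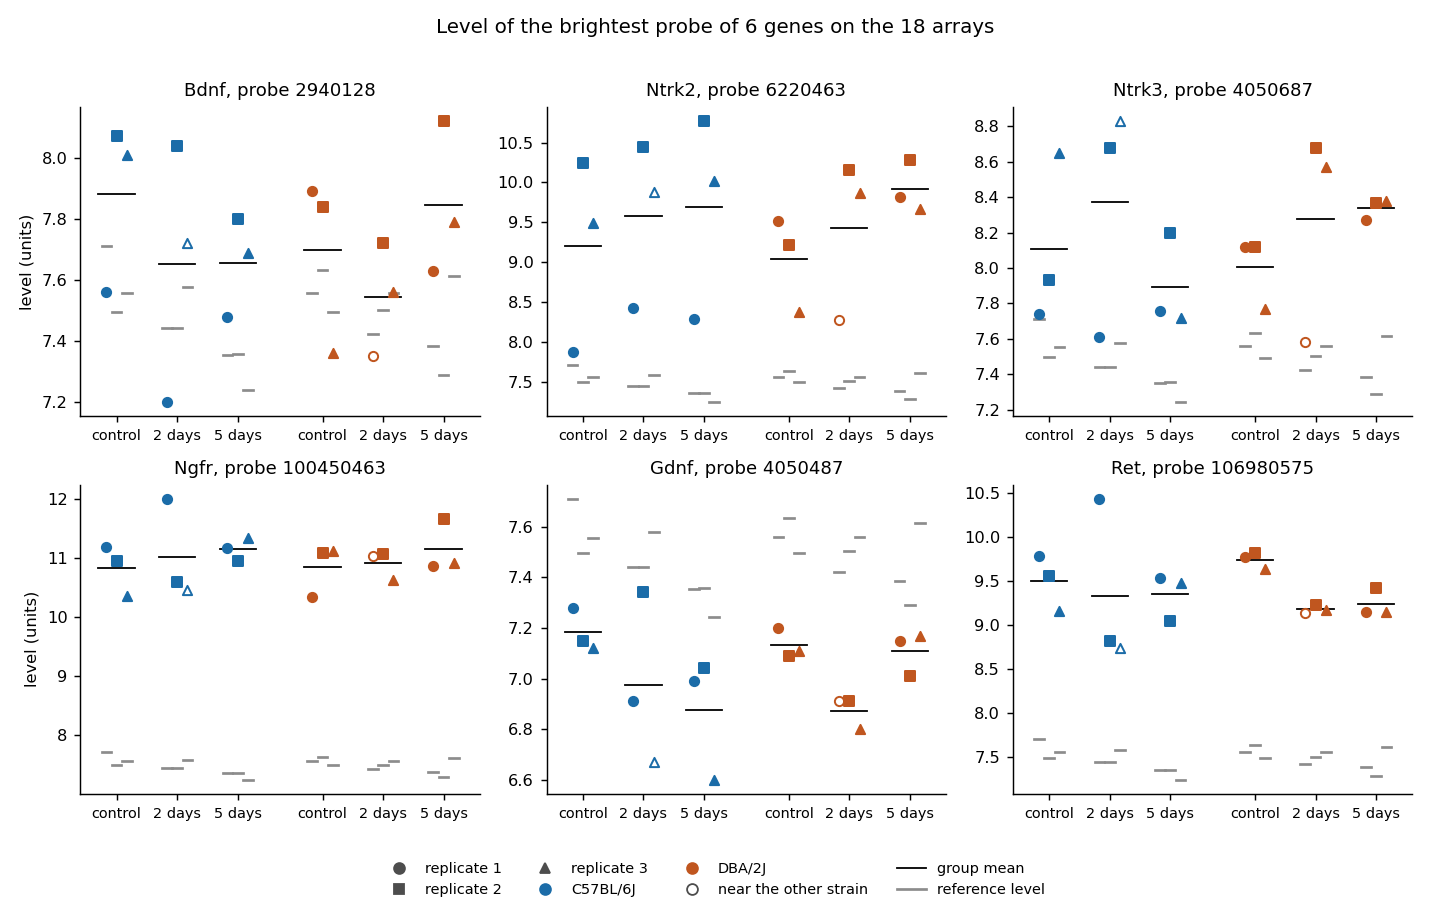
Level in units (y axis) of the brightest probe of Bdnf, Ntrk2, Ntrk3, Ngfr, Gdnf and Ret on the 18 arrays, by strain (blue C57BL/6J, orange DBA/2J) and time after optic nerve crush (x axis). Shapes mark replicate numbers, black lines group means, grey dashes the reference level of each array and open points the 2 arrays near the other strain. Ntrk2 spans 7.87 to 10.77 with replicate 1 lowest in every C57BL/6J group, and Gdnf stays below the reference level throughout.

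**Figure D4:**
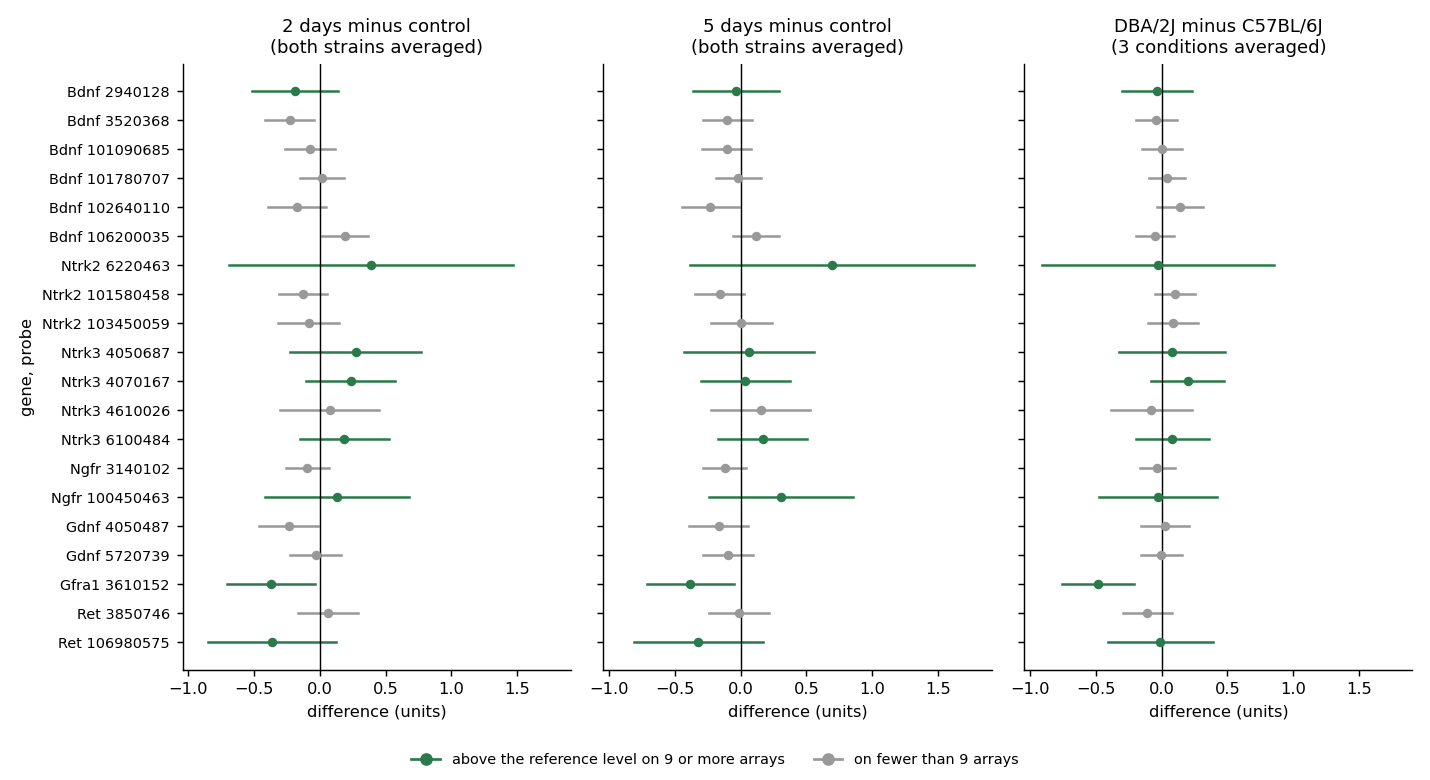
Difference in units (x axis) of the 20 probes (y axis) with its 95% interval from limma, for 2 days minus control and 5 days minus control with both strains averaged, and for DBA/2J minus C57BL/6J averaged over the 3 conditions. Green marks the 8 probes above the reference level on 9 or more arrays. Gfra1 is the one of these 8 whose interval lies below 0 in all 3 panels, between the strains at -0.76 to -0.21.

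These arrays recorded a response to the crush in other genes at the same comparison. With both strains averaged, the ganglion cell markers Rbpms, Thy1, Chrna6 and Isl2 fell at 5 days, with differences of -1.99, -2.25, -1.59 and -0.78 units, and these were 4 of 11 measured markers. Gfap, a filament of reactive glia, rose by 2.51 units (adjusted p = 0.00297), and in all 4 of 8 reactive glia markers rose. Markers of other cells were called too, beside 4.81% of all probes. For microglia and macrophages 3 of 6 rose, and for cones 3 of 6 fell. For Mueller glia 1 of 6 rose and 1 fell, and for vessels and pericytes 1 of 6 rose. For bipolar cells 1 of 5 fell, and for striated muscle 2 of 7 fell. For rods 1 of 5 rose while the median of the 5 was -1.11 units, and over the 16 arrays 0 of the 5 were called. The median absolute difference was 0.118 units for the 20 probes and 0.141 for all probes at 5 days, and 0.179 and 0.0971 at 2 days.

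Groups did not overlap for 1 of the 20 probes in C57BL/6J at 2 days (11.9% of all probes), for 2 at 5 days (25.1%), for 3 in DBA/2J at 2 days (12.1%) and for 5 at 5 days (17.5%). The 5 in DBA/2J at 5 days were Gfra1, Ret (106980575) and Ntrk2 (101580458), all lower, and Ntrk2 (6220463) and Ntrk3 (4050687), both higher. Ntrk2 probe 101580458 was above the reference level on 0 arrays, so no change can be read from it. The 3 at 2 days were Ret (106980575), Ntrk2 (101580458) and Gdnf (4050487), all lower, and of these Ret alone was above the reference level. The 2 times share the DBA/2J controls.

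The genes around these ligands and receptors were followed in 5 lists. Of 4 other ligands of the 2 families, all measured (Ntf5, Nrtn, Artn and Pspn), 0 lay above the reference level on 9 or more arrays, and none was called. The lowest adjusted p was that of Nrtn, neurturin, at 5 days with both strains averaged (-0.17 units, SE 0.08, adjusted p = 0.222). The median difference of the 4 was -0.08 units, beside -0.07 for all genes. No measured ligand of either family thus had a probe above the reference level on most arrays except Bdnf.

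Of 13 other receptors and co-receptors, 11 were measured and 7 lay above the reference level on 9 or more arrays. At 5 days with both strains averaged 1 of the 11 rose and none fell, beside 4.81% of all probes called. None of the 11 was called in the other 9 comparisons. Sorcs1, a sorting receptor of the family that includes sortilin, had medians of 10.26 and 10.21 units in the C57BL/6J and DBA/2J controls and 11.15 and 11.07 at 5 days, and rose by 0.90 units (SE 0.21, adjusted p = 0.021). Quantile normalization ended the call (0.42 log2, adjusted p = 0.0739), and its 2 other probes were at 0.10 and -0.06 units without a call. Leaving out 1 array of the control and 5-day groups at a time ended it in 10 of 12 fits (adjusted p from 0.00318 to 0.0542). The median difference of the 11 was -0.15 units, beside -0.07 for all genes.

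Of 46 transducers of these receptors, 34 were measured and 22 lay above the reference level on 9 or more arrays. Frs3, an adaptor that docks on activated receptor tyrosine kinases, had medians of 10.03 units in C57BL/6J controls, 9.68 at 2 days and 9.02 at 5 days, and of 9.75, 9.33 and 9.36 in DBA/2J. It fell at 5 days with both strains averaged by 0.71 units (SE 0.16, adjusted p = 0.0145) and after quantile normalization by 0.51 log2 (adjusted p = 0.00455). With 1 array left out at a time the call was lost in 6 of 12 fits, at an adjusted p of 0.0379 at most. It was the only one of the 34 called in any of the 10 comparisons. Of all probes 4.81% were called at 5 days with both strains averaged. The median difference of the 34 at 5 days was 0.02 units, beside -0.07 for all genes.

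Of 8 enzymes that cleave or sort precursors of neurotrophins, 7 were measured. Cpe, carboxypeptidase E, which sorts and trims precursors in secretory granules, had medians of 17.88 and 17.62 units in the C57BL/6J and DBA/2J controls and 16.98 and 16.41 at 5 days, and fell by 1.16 units (SE 0.24, adjusted p = 0.0113). Quantile normalization reduced this to -0.32 log2 (adjusted p = 0.321), so its fall depended on the scale, and 4 of 12 fits without 1 array lost it (adjusted p of 0.0357 at most). Plat, tissue plasminogen activator, just missed the threshold at 5 days (1.06 units, SE 0.28, adjusted p = 0.0316). At 5 days with both strains averaged 1 of the 7 was called, beside 4.81% of all probes, and none of the 7 in another comparison.

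Of 13 early response genes downstream of these kinases, 12 were measured and none was called. Etv5, a transcription factor of the ETS family, had the lowest adjusted p (-0.38 units at 5 days with both strains averaged, SE 0.14, adjusted p = 0.109). Its medians were 8.91 units in C57BL/6J controls, 8.22 and 8.45 at 2 and 5 days, and 8.38, 8.40 and 7.99 in DBA/2J. The median difference of the 12 was -0.13 units, beside -0.07 for all genes.

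The genes whose level over the 18 arrays was most like that of each member were looked up among 17657 others, as a description. For Gfra1 they were Dll1 (Pearson r 0.935), Pcdh20 (0.887) and Myo5a (0.872). For Ret they were Maea (0.947), Phkg2 (0.938) and Mast1 (0.921), and for Ngfr Tomm6 (0.917), Slc11a2 (0.901) and Eml4 (0.876). Ntrk2 followed Rpl22l1 (0.979), Eif4g2 (0.978) and Gngt1 (0.977). Ntrk3 followed Arpc2 (0.933), Sptssa (0.876) and Rpl5 (0.871), and Bdnf followed Dnaaf2 (0.916), Med20 (0.891) and Ptpn1 (0.886). All points share the same arrays, and much of the variation of Ntrk2 lay between replicates of a group rather than between groups.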

How the data were processed

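Retinal RNA of 6 groups (2 strains, control and 2 times after optic nerve crush) was measured on 18 one-colour Illumina arrays on 3 BeadChips, and the BeadChip of an array is not given in the sources used here. The methods give 3 mice per group. One deposited table gives signal intensity, which the authors had not normalized, and a second deposited table holds scores, which the authors made as 2 times the z-score of log2 intensity within an array plus 8. Intensities were brought to this scale before any test, and no probe of the 7 genes was among the 121 whose score differed by more than 0.02. In the platform annotation 29534 probes had 1 symbol, 11 several and 16571 none.

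limma (3.58.1, in R 4.3.3) was fitted with lmFit and eBayes to the 18 arrays, with a mean for each group (12 residual degrees of freedom, 2.88 prior). The 10 comparisons were the 5 of the study, both crush times with the strains averaged, the strains averaged over the 3 conditions, and the strain difference of the change at each time. p-values were adjusted over all probes with the Benjamini-Hochberg method at a threshold of 0.03, that of the study. The fit was tested on simulated data. Beside it ran quantile normalization, normexp with an offset of 50 and quantile normalization, the deposited scores, the probes brighter than the median, a threshold of 0.05, an intensity trend, a replicate block, the 2 groups alone, SAM, and each array left out in turn. The fit without the 2 arrays near the other strain was planned from earlier results of these data, and leaving out each of the other 16 beside them, quantile normalization of the 16, and the block of the C57BL/6J pairs at 2 days were added after the data were seen.

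The members and the gene lists were chosen with earlier results of these data known. All probes of the members were named. From a list, each called gene was named, or the gene with the lowest adjusted p where none was called, and Plat and the markers were chosen after their values were seen. The brightest probe stood for a gene in a list. Equal replicate numbers deviated together for C57BL/6J at 2 days against control (r 0.527, 0.476 and 0.317) but not in every pair of the other 4 comparisons. Python 3.11.15 with numpy 2.4.6 and matplotlib 3.10.9 was used for promoters and figures.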

Additional observations from a re-analysis of the deposited data

How the results depend on the processing

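The count of called members was 0 of 20 in each of the 10 comparisons, and it moved to 1 in 3 of them. With both strains averaged at 2 days, leaving out 1 array at a time gave 0 to 1, the 1 being Ret without C57BL/6J 2 days replicate 1. With both strains averaged at 5 days, quantile normalization gave 1 and normexp with quantile normalization gave 1, Gfra1 both times. Quantile normalization without the 2 arrays near the other strain also gave 1 there and 1 between the strains, Gfra1 again. Between the strains averaged over the 3 conditions, the fit without the 2 arrays near the other strain gave 1, and leaving out 1 array at a time gave 0 to 1, the 1 being Gfra1 without DBA/2J 2 days replicate 1 and in all 16 fits that left out a further array from the 16. The cause was not tested. Of 197 settings for the 10 counts, those 16 fits aside, 190 stayed at 0, the replicate block with 0 in all 10 comparisons and the block of the C57BL/6J pairs at 2 days with 0 among them. Of the 200 differences of a probe in a comparison, 89 changed sign under at least 1 setting. Adjusted p for Gfra1 between the strains ranged from 0.00274 to 0.198, for Gfra1 at 5 days from 0.00688 to 0.296 and for Ret at 2 days from 0.0198 to 0.901. The narrow range of signal over background, 8.38 to 15.4 from the 5th percentile to the 95th, limits what can be read of Gdnf and of most Bdnf probes.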

Other observations

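Over the 16 arrays that lay with their own strain, 4 genes of the lists differed between the strains averaged over the 3 conditions that were not called over all 18. Dok4, an adaptor that binds RET, was higher in DBA/2J by 0.87 units (limma, adjusted p = 0.000208), and by 0.66 over 18 arrays (adjusted p = 0.0621). Its medians over all arrays of a group were 10.51, 10.60 and 10.19 units in C57BL/6J controls, at 2 days and at 5 days, and 11.02, 11.11 and 11.16 in DBA/2J. Pik3r1, a regulatory subunit of phosphoinositide 3-kinase, was higher in DBA/2J by 1.12 units (adjusted p = 0.0159), and by 0.85 over 18 arrays (adjusted p = 0.186).

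Plat was lower in DBA/2J by 1.13 units (adjusted p = 0.00731), beside 0.93 over 18 arrays (adjusted p = 0.0617), with medians of 8.93 units in the C57BL/6J controls and 7.59 in the DBA/2J controls. Etv5 was lower by 0.44 units (adjusted p = 0.0275), beside 0.32 over 18 arrays (adjusted p = 0.278). These 4 came from the 5 lists, with 34 measured transducers, 7 enzymes, 12 early response genes, 11 receptors and 4 ligands, of which the last 2 lists held 0 calls, and 2.87% of all probes were called in that comparison. Plat also rose at 5 days with both strains averaged over the 16 arrays, by 1.06 units (adjusted p = 0.0223), where 4.19% of all probes were called.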
